A study of Mus musculus with 14 samples.

Results

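The miRNAs described here are 5 mature miRNAs of striated muscle, often called myomiRs: miR-1a-3p, miR-133a-3p, miR-133b-3p, miR-208b-3p and miR-499-5p. They were chosen by name, and all 5 are listed among the 900 mature miRNAs counted in whole epididymis and among the 677 counted in isolated epididymal epithelial cells. In skeletal and heart muscle the miR-1 and miR-133 families are transcribed together from shared genes. In skeletal muscle miR-206 is transcribed with miR-133b from another. miR-208b lies in an intron of the myosin heavy chain gene Myh7 and miR-499 in an intron of Myh7b, so their transcription is tied to slow-type and cardiac myosin genes. The epididymis is an epithelial duct wrapped in smooth muscle, a different muscle type from the one these miRNAs are named for.

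Small RNA was sequenced from the 3 main regions of the epididymis of adult male Swiss mice, from the caput next to the testis, through the corpus, to the cauda where sperm are stored. The mice were 8 weeks old, and their vasculature was perfused with phosphate-buffered saline before dissection. Whole tissue gave 3 caput, 2 corpus and 3 cauda libraries, and epithelial cells gave 2 libraries from each region, with several mice pooled for each. The epithelial cells were those that stayed in suspension after other cells had attached to the culture plate. Before that, sperm were flushed from the cauda and washed out of the incised caput and corpus. From staining and immunoblotting the study reported these cells as highly enriched for epithelium, with no sperm marker detected. The comparisons ask how the miRNAs differ between regions and between the whole organ and its epithelium.

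The deposited values are expected counts, in which a read that matches several miRNAs is divided between them. Whole tissue libraries held 1243398 to 2135501 counts, and epithelial libraries held 89039 to 362867 counts. Levels are given as CPM, counts scaled to a common library total, after adjustment by the TMM method, which sets aside the miRNAs that differ most between libraries. A level of 3 counts, used as the floor of detection, corresponded to 1.59 to 2.29 CPM in single whole tissue libraries but to 8.32 to 29.8 CPM in single epithelial libraries. The study's methods describe a replicate as RNA pooled from several animals and call it biological, while a note to one of its tables speaks of technical replicates. The methods also state 2 replicates, with libraries analysed in triplicate, whereas whole tissue has 3 caput and 3 cauda libraries. The replicate libraries may therefore be technical, so every p-value here measures only the spread between these libraries. Intervals and floors cover counting error only.

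A miRNA was called identified in a group when its mean count was above 10. In whole tissue 2 of the 5 members were identified in the caput, 2 in corpus and 5 in the cauda. In epithelial cells 1 member, miR-133a-3p, was identified in each of the 3 regions. The 5 members together made up 0.00286% to 0.114% of the counts of a library. Their summed share was thus small in every library, and highest in the third cauda library of whole tissue.

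miR-1a-3p, which promotes the differentiation of muscle cells, was at 16.2, 5.20 and 9.28 CPM in the 3 caput libraries of whole tissue, 22.1 and 59.4 CPM in the 2 corpus libraries and 55.7, 174.9 and 375 CPM in the 3 cauda libraries. Every cauda library lay above every caput library, and the lowest cauda library lay below the higher corpus library. In epithelial cells miR-1a-3p was at 19.4 and 9.90 CPM in the caput, 22.5 and 29.8 CPM in corpus and 27.5 and 42.8 CPM in the cauda. These epithelial values rest on 3 to 9 counts per library, and 3 of the 6 libraries were at the floor of 3 counts. By group mean the order was whole tissue cauda (202 ± 161 CPM, SD, n = 3), whole tissue corpus (40.7 ± 26.4, n = 2), epithelial cauda (35.1 ± 10.8, n = 2), epithelial corpus (26.2 ± 5.16, n = 2), epithelial caput (14.7 ± 6.73, n = 2) and whole tissue caput (10.2 ± 5.58, n = 3). All neighbours in that order overlapped except epithelial corpus and epithelial caput, and since both of those corpus libraries were at the floor of 3 counts, that step is not resolved either.

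miR-133a-3p, whose family acts on proliferation and differentiation of muscle cells, was at 16.9, 26.3 and 22.4 CPM in whole tissue caput, 39.2 and 102 CPM in corpus and 72.1, 275 and 522 CPM in cauda. The cauda libraries again lay above all caput libraries, and the lowest of them lay between the 2 corpus libraries. In epithelial cells it was at 308 and 350 CPM in the caput, 515 and 527 CPM in corpus and 465 and 254 CPM in the cauda. All 6 epithelial libraries lay above the whole tissue caput and corpus libraries and within or near the range of whole tissue cauda. By group mean, epithelial corpus was highest (521 ± 8.83 CPM, n = 2), then epithelial cauda (360 ± 149, n = 2), epithelial caput (329 ± 29.6, n = 2), whole tissue cauda (290 ± 225, n = 3), whole tissue corpus (70.8 ± 44.7, n = 2) and whole tissue caput (21.9 ± 4.73, n = 3). Epithelial corpus separated from epithelial cauda and whole tissue corpus from whole tissue caput, while the other neighbours overlapped.

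miR-133b-3p belongs to the same family and shares reads with miR-133a-3p, so how those reads are divided between the 2 names is uncertain. It was at 0.649, 0.325 and 0.546 CPM in whole tissue caput, 0.381 and 2.34 CPM in corpus and 1.59, 9.01 and 15.6 CPM in cauda. Only the cauda, with 3, 13.5 and 25 counts, had libraries above 10 counts, and the lowest cauda library was at the floor and below the higher corpus library. In epithelial cells miR-133b-3p was at 8.32 and 9.90 CPM in the caput, 11.3 and 9.94 CPM in corpus and 1.96 and 2.38 CPM in the cauda, from 0.5 to 3 counts per library. No epithelial library was above the floor. Its level was 0.00422 to 0.0385 of that of miR-133a-3p across the 14 libraries. By group mean the order was epithelial corpus (10.6 ± 0.936 CPM), epithelial caput (9.11 ± 1.12), whole tissue cauda (8.73 ± 7.00), epithelial cauda (2.17 ± 0.292), whole tissue corpus (1.36 ± 1.38) and whole tissue caput (0.507 ± 0.166), and since the epithelial values rest on 3 counts or fewer per library, this order is not resolved.

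miR-208b-3p, the miRNA from the Myh7 intron, was at 0, 0.649 and 0 CPM in whole tissue caput, 0.762 and 12.0 CPM in corpus and 15.9, 64.8 and 173 CPM in cauda. The counts were 0, 1 and 0 in the caput, 1 and 18 in corpus and 30, 97 and 277 in the cauda. The cauda libraries lay above every other library of whole tissue. In epithelial cells miR-208b-3p had 1 count, in the second cauda library, and 0 counts in the other 5. Those 0 counts allow up to 8.32 CPM in the deepest of these libraries and up to 29.8 CPM in the shallowest, and over both caput libraries together up to 4.52 CPM. The 12.0 CPM of the second whole tissue corpus library lies above the floors of both epithelial caput libraries and of the first epithelial cauda library, and below those of the other 3. By group mean, whole tissue cauda (84.4 ± 80.2 CPM, n = 3) stood apart from whole tissue corpus (6.39 ± 7.96, n = 2). Below these came epithelial cauda (2.38 ± 3.36, n = 2) and whole tissue caput (0.216 ± 0.375, n = 3), with epithelial caput and corpus at 0, and none of these neighbours separated.

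miR-499-5p, the miRNA from the Myh7b intron, was at 0, 0 and 1.09 CPM in whole tissue caput, 0.762 and 1.33 CPM in corpus and 4.77, 13.4 and 26.2 CPM in cauda. The counts were 0, 0 and 2 in the caput, 1 and 2 in corpus and 9, 20 and 42 in the cauda, whose libraries lay above all others of whole tissue. In epithelial cells it had 1 count, in the same library as miR-208b-3p, and 0 counts in the other 5. Whole tissue cauda (14.8 ± 10.8 CPM, n = 3) was followed by epithelial cauda (2.38 ± 3.36), whole tissue corpus (1.05 ± 0.405) and whole tissue caput (0.364 ± 0.630), with epithelial caput and corpus at 0. Whole tissue cauda lay above the next group by only 4.774 against 4.754 CPM, the latter from 1 count, and with library totals in place of TMM scaling the 2 overlapped (5.06 against 5.58 CPM). The groups below overlapped as well.

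**Figure D1:**
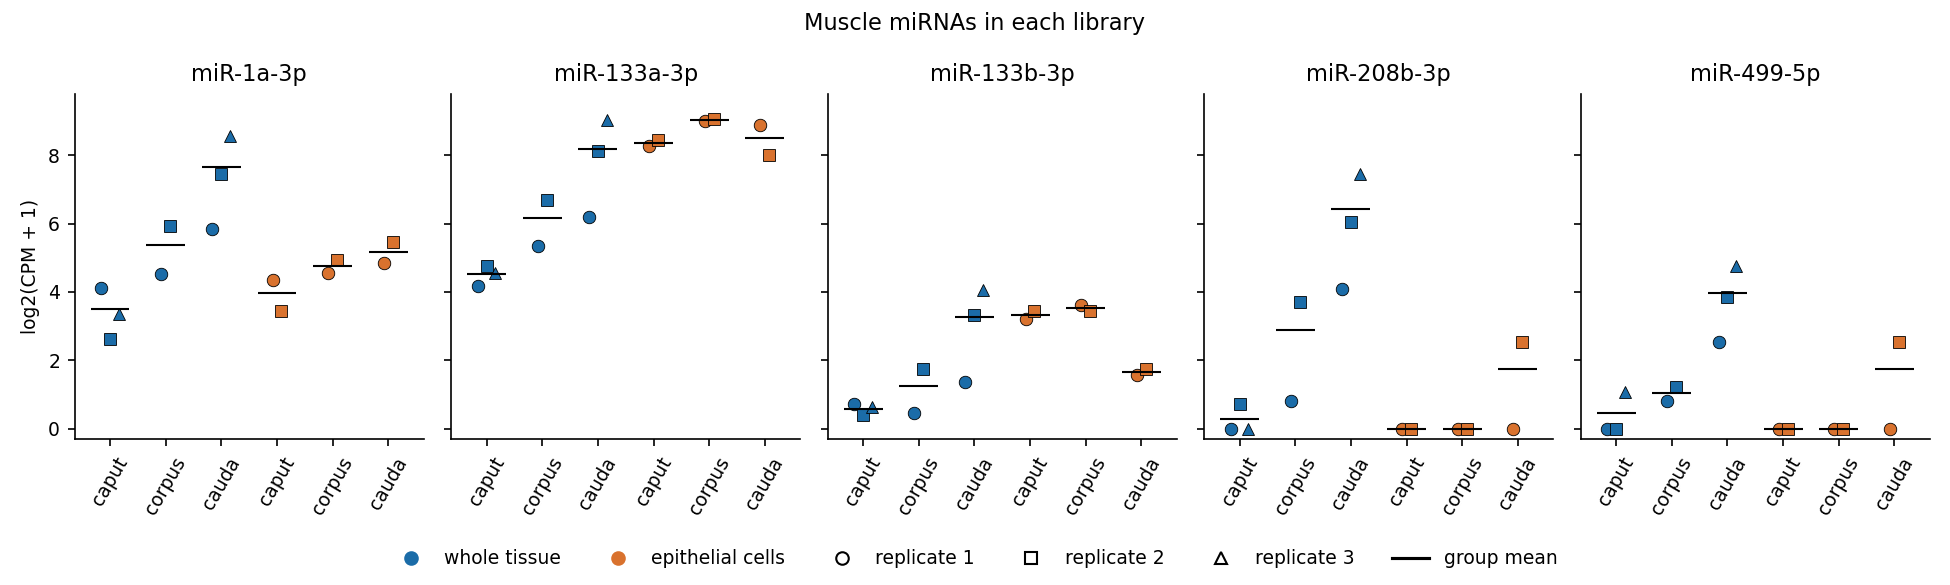
Level of each of the 5 muscle miRNAs in each library, as log2(CPM + 1), by region; whole tissue is blue, epithelial cells are orange, marker shapes give the replicate number and lines give the group means. In whole tissue the 3 cauda libraries spread widely in every panel, and in the epithelial libraries miR-133a-3p, at 254 to 527 CPM, is far above the other 4.

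The mature sequences of the myosin-gene miRNAs are shown because most of their counts were in whole tissue cauda, and that of miR-206-3p because it is a skeletal muscle miRNA whose gene neighbours that of miR-133b-3p. Capitals mark the seed, bases 2 to 8 from the 5′ end, the part that pairs with targets.
miR-208b-3p: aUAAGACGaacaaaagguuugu
miR-499-5p: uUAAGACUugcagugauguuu
miR-206-3p: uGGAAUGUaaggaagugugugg
The sequences are from RefSeq on GRCm38.p6, at chr14:54975710-54975731 on the minus strand for miR-208b-3p, chr2:155622893-155622913 on the plus strand for miR-499-5p and chr1:20679055-20679076 on the plus strand for miR-206-3p. miR-208b-3p and miR-499-5p share a run of 6 bases, UAAGAC, which starts at base 2 of both and leaves their seeds different only at the last base. In the annotation Mir208b overlaps 0 exons of Myh7 and Mir499 overlaps 0 exons of Myh7b, each on the strand of its host gene. Mir206 and Mir133b lie 3686 bases apart on chromosome 1, and Mir1a-1 and Mir133a-2 lie 9254 bases apart on chromosome 2.

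Differences between groups were tested with limma-voom over all miRNAs identified in either group compared, and a difference was called with a Benjamini-Hochberg adjusted p below 0.05 and at least a 2-fold change. From caput to cauda of whole tissue, 5 of 5 members were called higher, against 27.9% of the 355 miRNAs tested. miR-133b-3p, miR-208b-3p and miR-499-5p entered this test only because they were above the minimum in the cauda, so they had to differ and their number is no support for a pattern. In bulk tissue, fewer cells of a type and less RNA per cell cannot be told apart.

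miR-1a-3p rose by 3.87 on the log2 scale (SE 1.03, limma-voom adjusted p = 0.00595) and miR-133a-3p by 3.20 (SE 0.85, adjusted p = 0.00565). Both were higher in all 3 cauda libraries than in any caput library. The log2 change of miR-1a-3p was 3.22 without the third cauda library and 4.61 without the first, and that of miR-133a-3p was 2.57 and 4.01. Both were called whichever single library was left out, although the size moved with the cauda libraries included.

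The other 3 members have too few caput counts for a fold change to be read from the fit, whose value depends on the prior count added to low counts. Ratios of pooled counts per total are therefore given with 95% exact intervals. For miR-133b-3p, 42 cauda counts against 3 caput counts, after rounding, gave a ratio of 13.8 (interval 4.41 to 69.5). For miR-208b-3p, 404 cauda counts against 1 caput count gave a ratio of 398 (71.0 to 15752). For miR-499-5p, 71 cauda counts against 2 caput counts gave a ratio of 35.0 (9.33 to 294). A cauda excess follows from how these 3 entered the test, and the intervals leave out the spread between libraries. Without the third cauda library the ratios were 8.23 (2.38 to 43.8) for miR-133b-3p, 184 (32.5 to 7340) for miR-208b-3p and 21.1 (5.33 to 182) for miR-499-5p. Without the first they were 20.6, 592 and 49.1.

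The limma-voom log2 changes of these 3 were 3.18 for miR-133b-3p (SE 1.11, adjusted p = 0.0229), 6.85 for miR-208b-3p (SE 2.16, adjusted p = 0.0142) and 4.38 for miR-499-5p (SE 0.99, adjusted p = 0.00228). edgeR gave 4.06, 8.12 and 4.81 and DESeq2 4.43, 8.55 and 5.19, so the fitted size varies with the tool. Each was higher in all 3 cauda libraries than in any caput library, with miR-133b-3p at the floor of 3 counts in the first cauda library. These 3 entered the test only through the cauda, so neither that separation nor their calls are support. The call of miR-133b-3p was lost without the second caput library (2.78, adjusted p = 0.0805) or the second cauda library (2.92, adjusted p = 0.0812), and without the first cauda library it was 4.17. Without the third cauda library its mean count fell under the minimum and it was not tested, here or in any other comparison with whole tissue cauda. The call of miR-208b-3p was lost without the second cauda library (6.77, adjusted p = 0.0671), and its value was 6.03 without the third cauda library and 7.79 without the first. miR-499-5p was called whichever library was left out, at 3.82 without the third cauda library and 5.11 without the third caput library. Adjusted p-values over all the alternatives reached 0.0812 for miR-133b-3p and 0.0671 for miR-208b-3p, and stayed at or below 0.0283 for the other members. The median log2 change over all 355 miRNAs tested was -0.05.

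From caput to corpus only miR-1a-3p and miR-133a-3p could be tested, and 0 of 2 were called higher by limma-voom, against 14.1% of the 334 miRNAs tested. The log2 differences were 1.90 (SE 1.199, adjusted p = 0.198) and 1.54 (SE 1.00, adjusted p = 0.209). Neither member had an unadjusted p below 0.05, and edgeR and DESeq2 called 0 of 2. A limma-voom fit of only these 2 regions called both (1.95, adjusted p = 0.0216, and 1.57, adjusted p = 0.0161). So did limma-voom with a replicate block (2.80, adjusted p = 0.000542, and 2.26, adjusted p = 0.000269), although the replicate numbers were not shown to pair the libraries. Every corpus library was above every caput library for both, with the second corpus library 2.69 and 2.61 times the first. Without the first cauda library, which is in the fit but in neither group, both were called (1.90, adjusted p = 0.0301, and 1.54, adjusted p = 0.0189). Over all alternatives the adjusted p ran from 0.000542 to 0.569 for miR-1a-3p and from 0.000269 to 0.629 for miR-133a-3p.

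From corpus to cauda, 0 of 5 members were called higher by limma-voom, against 14.4% of the 341 miRNAs tested. miR-133b-3p, miR-208b-3p and miR-499-5p entered this comparison too only through the cauda, so a cauda excess was fixed for them and calls of these 3, under any setting, are no support. The log2 differences were 1.96 for miR-1a-3p (SE 0.82, adjusted p = 0.0661), 1.66 for miR-133a-3p (SE 0.78, adjusted p = 0.0937), 2.49 for miR-133b-3p (SE 1.31, adjusted p = 0.125), 3.73 for miR-208b-3p (SE 1.90, adjusted p = 0.117) and 3.04 for miR-499-5p (SE 1.18, adjusted p = 0.0514). Unadjusted p-values were below 0.05 for 2 of the 5, and edgeR and DESeq2 each called 4 of the 5, all but miR-133b-3p. Within limma-voom, miR-499-5p was also called with DESeq2 size factors, library totals, no filter beyond 1 count, the miR-133 pair counted together, only the 2 regions fitted or unrounded counts. A replicate block called miR-1a-3p (1.47), miR-133a-3p (1.29), miR-208b-3p (2.71) and miR-499-5p (2.54), although the replicate numbers were not shown to pair the libraries. The count of 0 thus depends on the tool and the settings. Without the first cauda library limma-voom called miR-1a-3p (2.71) and miR-133a-3p (2.47), and also the 3 that the filter selects, with log2 changes of 3.47 for miR-133b-3p, 4.67 for miR-208b-3p and 3.72 for miR-499-5p. Without the third cauda library it called miR-499-5p (2.46, adjusted p = 0.0407). Over all alternatives the adjusted p ran from 0.000610 to 0.274 for miR-1a-3p, 0.000402 to 0.376 for miR-133a-3p, 0.00511 to 0.533 for miR-133b-3p, 0.00279 to 0.305 for miR-208b-3p and 0.00289 to 0.204 for miR-499-5p.

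The members were taken up with their wide spread between replicate cauda libraries already known, and its size is described here. The ratio of the highest to the lowest of the 3 whole tissue cauda libraries was 10.8 for miR-208b-3p, 9.79 for miR-133b-3p, 7.24 for miR-133a-3p, 6.73 for miR-1a-3p and 5.48 for miR-499-5p. These were places 3 to 7 among the 325 miRNAs identified in the cauda, whose median ratio was 1.26 and whose 90th percentile was 1.91. Above them were miR-465b-5p, with 0, 70 and 85 counts, and miR-206-3p, with a ratio of 39.9 from 1, 25 and 34 counts. The next were miR-299a-5p at 3.57, miR-155-5p at 2.82 and miR-144-5p at 2.73. No test was made of this spread over 3 libraries.

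All 5 members were lowest in the first cauda library, intermediate in the second and highest in the third. That order held for 66 of the 325 miRNAs (20.3%). Relative to the first library, the second was 2.80 to 5.66 times higher and the third 5.48 to 10.8 times higher. In the corpus, the second library was higher than the first for all 5, by 1.75 times for miR-499-5p (2 counts against 1), 2.61 for miR-133a-3p, 2.69 for miR-1a-3p, 6.13 for miR-133b-3p (3.5 counts against 0.5) and 15.8 for miR-208b-3p (18 counts against 1). Over the 304 miRNAs identified in the corpus, 162 (53.3%) were higher in the second library, so that direction alone says little about the members. With library totals in place of TMM scaling the cauda ratios were 5.31 to 10.5.

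**Figure D2:**
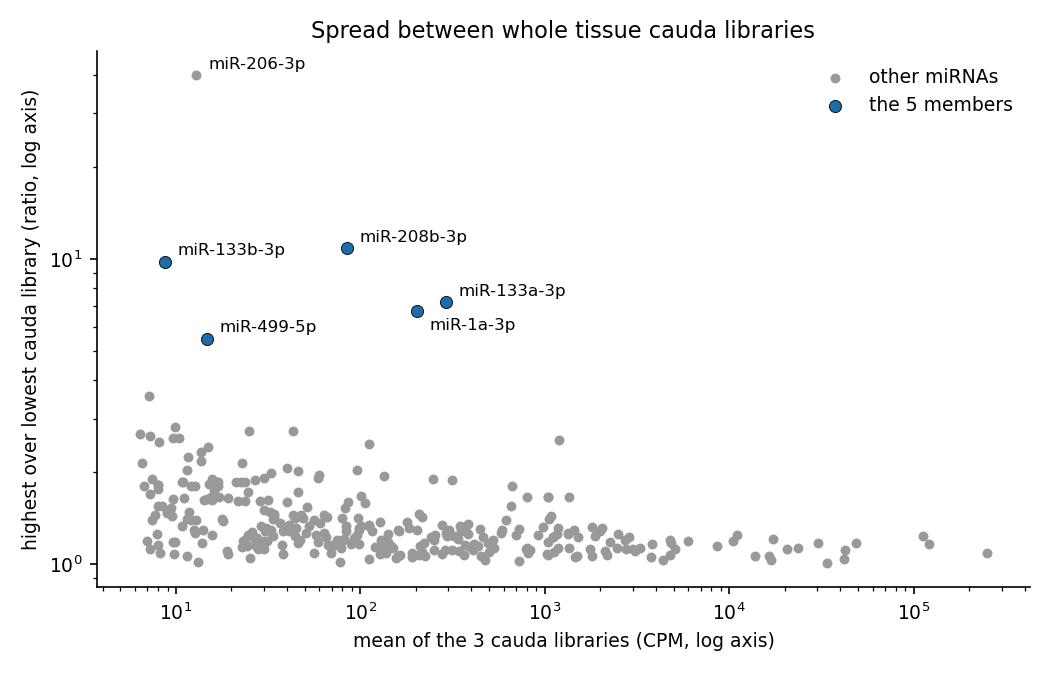
Ratio of the highest to the lowest of the 3 whole tissue cauda libraries against their mean level in CPM, both on log axes, 1 point per miRNA identified in the cauda; miR-465b-5p, at 0 in 1 library, is not drawn. The 5 members (blue) lie between 5.48 and 10.8, while the median miRNA is at 1.26.

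Across the 8 whole tissue libraries, each member's log2(CPM + 1) correlated with the mean of the other 4 at Pearson r of 0.9502 to 0.982. These correlations, like those that follow, describe 8 libraries in 3 regions and carry the regional difference with them. The miRNAs most like the members' mean, among the others of the 355 tested, were miR-378a-3p (r = 0.987), miR-378c (0.982), miR-206-3p (0.956), miR-193b-3p (0.938) and miR-193a-3p (0.936). Of these, miR-378a-3p and miR-206-3p are among the other names tied to striated muscle that are described below. miR-378a-3p was at 382, 450.4 and 417 CPM in the caput, 492 and 643 CPM in corpus and 684, 1144 and 1741 CPM in the cauda. It shared the members' order within the cauda and the corpus, with a smaller spread.

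The ratio of miR-1a-3p to miR-133a-3p counts, which come from shared genes in muscle, differed between the preparations. It was 0.962, 0.198 and 0.415 in whole tissue caput, 0.563 and 0.580 in corpus and 0.772, 0.637 and 0.718 in cauda. In epithelial cells it was 0.0631 and 0.0283 in the caput, 0.0438 and 0.0566 in corpus and 0.0591 and 0.168 in the cauda. All 8 whole tissue libraries were above all 6 epithelial libraries, though the 95% exact intervals of the nearest ones overlapped (0.0809 to 0.433 in the second caput library of whole tissue, 0.0736 to 0.347 in the second cauda library of epithelial cells). This ratio was picked out after its values were seen and was not tested. The ratio of miR-208b-3p to miR-1a-3p was 0.286, 0.370 and 0.460 in the 3 cauda libraries of whole tissue.

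In epithelial cells only miR-133a-3p could be tested, and no regional difference was called by limma-voom. From caput to corpus 0 of 1 members were called, against 12.2% of the 205 miRNAs tested, with a log2 difference of 0.68 (SE 0.29, adjusted p = 0.140). From corpus to cauda 0 of 1 were called, against 10.9% of 192, with -0.67 (SE 0.30, adjusted p = 0.167). From caput to cauda 0 of 1 were called, against 25.9% of 216, with 0.00 (SE 0.28, adjusted p = 0.998). The level differed by less than the 2-fold threshold in all 3 comparisons, and the 2 cauda libraries, at 465 and 254 CPM, lay on either side of the caput libraries. The unadjusted p was below 0.05 in 1 of the 3, from caput to corpus, and edgeR and DESeq2 called none. In that comparison both corpus libraries were above both caput libraries. Over the alternatives other than leaving out 1 library, its adjusted p ran from 0.0279 (limma-voom with only the 2 regions fitted) to 0.172. Its log2 difference was then 0.54 to 0.84, under 2-fold, so it was not called. Without the first epithelial cauda library the corpus to cauda difference was called (-1.07, adjusted p = 0.0431), with 1 cauda library whose spread is taken from the other groups. Its adjusted p ran from 0.0431 to 0.406 over all alternatives.

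The preparations were counted in separate tables, and whether they were sequenced together is not stated, so the preparation and any difference in sequencing or counting cannot be told apart. In the caput, 1 of 2 members tested was called higher in epithelial cells, against 12.3% of the 284 miRNAs tested. This was miR-133a-3p, with a log2 difference of 3.92 (SE 0.87, limma-voom adjusted p = 0.00145), rank 2 of the 284. Both epithelial caput libraries were above all 3 of whole tissue. The call held without any single library, at 3.75 to 4.14, although without an epithelial caput library that arm is 1 library. miR-1a-3p differed by 0.71 (SE 1.44, adjusted p = 0.693), with overlapping libraries.

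In the corpus, 1 of 2 members was called higher in epithelial cells, against 8% of the 275 miRNAs tested. miR-133a-3p was higher by 2.995 on the log2 scale (SE 0.92, limma-voom adjusted p = 0.0197), again rank 2, and higher in both epithelial libraries than in both of whole tissue. The call was lost without the first whole tissue corpus library (2.33, adjusted p = 0.0839), the first epithelial corpus library (2.88, adjusted p = 0.0907) or the second (2.98, adjusted p = 0.0842), and without the second whole tissue corpus library the difference was 3.71. Each of these leaves an arm of 1 library, which is assumed to vary like the other groups. Over all alternatives its adjusted p ran from 0.000123 to 0.0907. miR-1a-3p differed by -0.32 (SE 1.48, adjusted p = 0.907), and its 2 epithelial libraries lay between the 2 of whole tissue.

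In the cauda, 0 of 5 members were called lower in epithelial cells by limma-voom, against 19.9% of the 296 miRNAs tested, and none was called higher. All members but miR-133a-3p were tested only through whole tissue cauda. In epithelial cauda miR-1a-3p had a mean of 8 counts, and miR-133b-3p, miR-208b-3p and miR-499-5p had 0.5 each. They were selected through the group where they are high, so calls of them as lower in epithelial cells, under any setting, are no support. The filter does not strictly fix the direction, since its minimum is in counts and the epithelial libraries are shallower. The log2 differences were -2.06 for miR-1a-3p (SE 1.13, adjusted p = 0.140), 0.73 for miR-133a-3p (SE 0.72, adjusted p = 0.402), -1.55 for miR-133b-3p (SE 1.00, adjusted p = 0.203), -3.86 for miR-208b-3p (SE 1.59, adjusted p = 0.0562) and -1.66 for miR-499-5p (SE 0.88, adjusted p = 0.124). Both epithelial libraries were below all 3 of whole tissue for miR-1a-3p and miR-208b-3p. For miR-499-5p they were too, but only by 4.754 against 4.774 CPM, and with library totals they overlapped. The unadjusted p was below 0.05 for 1 member, edgeR called 2 (miR-1a-3p and miR-208b-3p) and DESeq2 called 1 (miR-1a-3p).

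These cauda comparisons turn on the first whole tissue cauda library. Without it, limma-voom called miR-1a-3p (-2.83), miR-133b-3p (-2.52), miR-208b-3p (-4.84) and miR-499-5p (-2.35) lower in epithelial cells. All of these were tested only through whole tissue cauda, so the calls are no support. The difference of miR-133a-3p was then -0.10 (adjusted p = 0.848). Without the third whole tissue cauda library miR-208b-3p was called (-3.004, adjusted p = 0.0471). Over all alternatives the adjusted p of miR-208b-3p ran from 0.00105 to 0.351, that of miR-1a-3p from 0.000845 to 0.442, that of miR-133b-3p from 0.00870 to 0.654, that of miR-499-5p from 0.0102 to 0.669 and that of miR-133a-3p from 0.0506 to 0.866.

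The difference between preparations in the change from caput to cauda was tested directly. It was called for 1 of 5 members, miR-133b-3p, with the epithelial change lower, against 4.6% of the 326 miRNAs tested. Its value was -5.60 on the log2 scale (SE 1.45, limma-voom adjusted p = 0.0158), but it rests on 0.5 counts in each epithelial cauda library, which rounding sets to 0, and on 3 counts in each epithelial caput library. With the counts not rounded, an alternative chosen after the data had been seen, it was -4.23 (adjusted p = 0.0384), while edgeR gave -10.24 and DESeq2 -8.13, so its size is not fixed by these counts. The call was lost without the first epithelial caput library (-5.73, adjusted p = 0.0506) or the first epithelial cauda library (-5.45, adjusted p = 0.0611), each of which leaves an arm of 1 library whose spread is taken from the other groups. Without the first whole tissue cauda library the value was -6.57. Over all alternatives its adjusted p ran from 0.000362 to 0.0611. The values of the other members were -2.77 for miR-1a-3p (SE 1.83, adjusted p = 0.316), -3.19 for miR-133a-3p (SE 1.13, adjusted p = 0.0619), -5.63 for miR-208b-3p (SE 2.54, adjusted p = 0.140) and -3.19 for miR-499-5p (SE 1.35, adjusted p = 0.125). The filter favours a rise in whole tissue for miR-133b-3p, miR-208b-3p and miR-499-5p, which passed it only through whole tissue cauda, so their sign is no support. It does not set their epithelial change. Without the first whole tissue cauda library these other 4 were called too, at -3.54, -4.02, -6.61 and -3.88. Over all alternatives the adjusted p of miR-133a-3p ran from 0.000180 to 0.147, that of miR-1a-3p from 0.0211 to 0.561, that of miR-208b-3p from 0.00521 to 0.989 and that of miR-499-5p from 0.0198 to 0.918. The highest values of miR-208b-3p (-3.80) and miR-499-5p (-0.59) and their highest adjusted p-values came from edgeR.

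Of 25 other names tied to striated muscle or to these genes, 14 were listed in whole tissue and 6 were identified there. From caput to cauda 5 of these 6 were called higher and 0 lower by limma-voom, against 27.9% and 25.4% of all 355 miRNAs tested. Of the 5, miR-206-3p and miR-486a-3p passed the filter only through the cauda and had to differ. miR-206-3p, a miRNA of skeletal muscle, had 0 counts in all 3 caput libraries, 0 and 3 in corpus and 1, 25 and 34 in the cauda. Its cauda level was at least 19.7-fold higher than the floor of 3 counts over the caput group (at least 12.6-fold without the third cauda library, 31.1-fold without the first), though the first cauda library, with 1 count, was itself under that floor. The fitted log2 change was 4.19 (SE 1.59, limma-voom adjusted p = 0.0328), 7.25 with edgeR and 6.81 with DESeq2, and with no caput counts it depends on the prior count. The limma-voom call was lost without any of the 3 caput libraries (4.26, 4.30 and 4.11), the second corpus library (4.18), the second cauda library (3.53) or the third (3.31). The others called were miR-378a-3p (1.30, SE 0.28, adjusted p = 0.00176), miR-486a-3p (4.85, SE 0.44, adjusted p = 4.28e-06), and miR-486a-5p and miR-486b-5p, which have identical counts (3.89, SE 0.20, adjusted p = 9.12e-08). The miR-486 names are also in the list of red blood cell miRNAs. In epithelial cells 7 of the 25 names were listed, 3 were identified and 1 was called higher from caput to cauda (against 13.9% of 216), miR-486-5p (2.72, SE 0.39, adjusted p = 0.00136). miR-206-3p is not listed there. The table lists miR-378-3p in place of the name miR-378a-3p, at 651 to 935 CPM, with a log2 difference of -0.26 from caput to cauda (SE 0.20, limma-voom adjusted p = 0.324). The passenger strands of the members had at most 4 counts in any library.

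Lists of miRNAs that mark other cells were summed in the same libraries. The smooth muscle list (4 of 6 names listed, miR-143-3p the most abundant) summed to 66585, 54161 and 52950 CPM in whole tissue caput, 81919 and 77594 CPM in corpus and 253240, 241998 and 263228 CPM in cauda. It was higher in the cauda, with 4 of 4 identified names called higher (against 27.9% of all tested), of which miR-143-5p was tested only through the cauda and had to differ, but its 3 cauda libraries were close to each other where the muscle members differed by 5.48 to 10.8 times. In epithelial cells the list summed to 128774 and 200382 CPM in the caput, 196451 and 204505 CPM in corpus and 355289 and 157492 CPM in the cauda, so the cells labelled epithelial held as much of it as whole tissue did or more, except for 1 cauda library. None of the 3 names identified there was called between caput and cauda. The study judged this preparation highly enriched for epithelium by protein markers, and these miRNA sums do not measure its purity.

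The epithelial list (7 of 7 names listed) summed to 22743, 22386 and 21837 CPM in whole tissue caput, 18617 and 17737 CPM in corpus and 10285, 8921 and 9547 CPM in cauda, with miR-200a-3p the most abundant and 5 of 7 names called lower in the cauda (against 25.4% of all tested). In epithelial cells it summed to 25660.5, 26849 and 35955 CPM in the first 3 libraries (caput 1, caput 2 and corpus 1) and to 39575, 35728 and 41177 CPM in the next 3 (corpus 2, cauda 1 and cauda 2), with miR-205-5p the most abundant. These values are above those of whole tissue in every region, and the cells labelled epithelial thus held the miRNAs of both this list and the smooth muscle list.

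The red blood list (7 of 10 names listed, miR-486a-5p the most abundant) summed to 167, 150.02 and 151 CPM in whole tissue caput, 483 and 420.5 CPM in corpus and 1672, 2478 and 2708 CPM in cauda, and 6 of 6 identified names were called higher in the cauda, against 27.9% of all tested. Of these 6, miR-144-3p, miR-144-5p and miR-486a-3p were tested only because they are high in the cauda, and miR-486a-5p and miR-486b-5p have the same counts, so the first 3 had to differ and the last 2 count once. Its sum had the order of the muscle members across the 3 cauda libraries, lowest in the first and highest in the third, with a smaller spread. In epithelial cells (5 of 10 names listed, miR-486-5p the most abundant) it summed to 424 and 394 CPM in the caput, 192 and 423 CPM in corpus and 3144 and 1581 CPM in the cauda. There 3 of 3 identified names were called higher, against 13.9% of all tested, miR-144-3p again tested only through the cauda. The study's epithelial values also hold miR-3107-5p, a name outside this list, with the same counts as miR-486-5p. These epithelial sums leave it out, while the whole tissue sums include both miR-486a-5p and miR-486b-5p. The sums of the 2 preparations are therefore not on the same footing. The leukocyte list (5 of 7 names in each table) summed to 975 to 1154 CPM in whole tissue caput, 1183 and 1475 CPM in corpus and 2008, 2150 and 2106 CPM in cauda, and to 482 to 1673 CPM in epithelial cells. miR-142a-5p was its most abundant name in whole tissue and miR-142-5p in epithelial cells. From caput to cauda 3 of 5 names were called higher in whole tissue, miR-155-5p tested only through the cauda, and 2 of 2 in epithelial cells (against 27.9% and 13.9% of all tested). Its sum, mostly miR-142a-5p, hides names that were not level across the 3 cauda libraries: miR-155-5p was at 5.30, 9.35 and 15.0 CPM, in the members' order, and miR-150-5p had a ratio of highest to lowest of 1.94.

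The endothelial list (2 of 4 names in each table) summed to 13911 to 18781 CPM in whole tissue, at 17371, 18781 and 17328 CPM in the cauda, and to 12747 to 59779 CPM in epithelial cells, with miR-126a-5p and miR-126-5p the most abundant. None of the endothelial names was called. The fibroblast list (6 of 6 names) summed to 1983 to 2435 CPM in whole tissue caput, 3791 and 3930.0 CPM in corpus and 3871, 4707 and 4125 CPM in whole tissue cauda, with miR-199a-5p the most abundant, and to 2678 to 7424 CPM in epithelial cells, with miR-199a-3p. miR-199a-3p and miR-199b-3p, which have the same level, were called higher from caput to cauda in both tables (2 of 6 and 2 of 5 names tested, against 27.9% and 13.9% of all). The germ cell list (5 of 6 names in each table, miR-34c-5p the most abundant) summed to 3724 to 4832 CPM in whole tissue caput, 3786 and 4560.1 CPM in corpus, 10676, 9150.1 and 9901 CPM in cauda, with 3 of 5 names called higher from caput to cauda (against 27.9% of all tested), and to 1661 to 5154 CPM in epithelial cells, with 0 of 4 called higher (against 13.9%). The neuronal list is the single name miR-124-3p, at 0 to 1.30 CPM in whole tissue caput, 0.762 and 1.33 CPM in corpus, 9.02, 6.01 and 4.98 CPM in cauda (called higher, tested only through the cauda) and at 0 in 5 of 6 epithelial libraries. The leukocyte, fibroblast, germ cell and neuronal lists were thus higher in every whole tissue cauda library than in any of the caput. None of these 4 sums, nor the endothelial one, had the order of the muscle members across the cauda libraries. No listed name of any list was at 0 in every library. The part of any of these cells in the levels of the muscle miRNAs was not tested.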

How the data were processed

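The authors aligned small RNA reads with Bowtie 1.1.1 and deposited expected counts per mature miRNA, 1 table per preparation, in which reads matching several miRNAs are divided. A constant of 0.001 in the epithelial table was removed. All columns were used (0 columns not used). For the tests, counts were rounded to whole numbers and analysed in R 4.3.3 with limma-voom (limma 3.58.1) and TMM factors (edgeR 4.0.16), with 1 fit per preparation and a joint fit of 14 libraries over 578 shared names for the comparisons of preparations. All adjusted p-values are Benjamini-Hochberg values over every miRNA tested, from limma unless another tool is named. Tested miRNAs had a mean count above 10 in at least 1 group compared (in any group for the difference of changes). CPM are scaled by the joint fit's TMM factors.

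The TMM factors come from the identified miRNAs. That choice was made after results with factors from all miRNAs had been seen and set beside the calls of an earlier analysis of these data, and it changed 2 calls of the members, given with the alternatives. Exact intervals (95%) are conditional binomial, on pooled counts with 0.5 rounded up.

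The members and lists were chosen with earlier results of these data known. Named miRNAs are the members, the other muscle names, the 5 whose mean profile is most like the members and the 5 outside them with the largest cauda ratios. Alternatives were edgeR's quasi-likelihood test, DESeq2 1.42.0, its size factors, library totals, other filters, miR-133a-3p and miR-133b-3p counted together, only the groups compared, replicate blocks and each library left out. Factors from all miRNAs and unrounded counts were added after the data had been seen.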

Additional observations from a re-analysis of the deposited data

Results flagged for a closer look

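The change of miR-133b-3p from caput to cauda differed between whole tissue and epithelial cells by -5.60 on the log2 scale in limma-voom's test of that difference (adjusted p = 0.0158). It is listed because the difference between the preparations passed its test. miR-133b-3p was tested only because it is high in whole tissue cauda. That filter favours a rise in whole tissue, so the sign is no support, although the filter does not set the epithelial change. The epithelial side rests on 3 counts per caput library and 0.5 per cauda library, all at or under the floor of 3 counts, and on how reads are divided between miR-133b-3p and miR-133a-3p, so no direction is resolved there. With counts not rounded the value was -4.23, with edgeR -10.24 and with DESeq2 -8.13, and the adjusted p over all alternatives ran from 0.000362 to 0.0611. Its cause was not tested.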

How the results depend on the processing

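The members gave 29 results. Of 283 values under the alternatives other than leaving out a library, 238 kept the direction and the side of the threshold, 40 were newly called and 5 changed sign, while 0 lost a call. Of 306 values with 1 library left out, 276 kept both, 18 were newly called, 8 lost the call and 4 changed sign. Not every filter gave a value for every member, since at least 10 counts in every library removes most of them, and without the third whole tissue cauda library miR-133b-3p was not tested. The cause was not tested, beyond fewer libraries or miRNAs entering a fit.

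With edgeR, the corpus to cauda log2 changes called were 2.23 (miR-1a-3p), 1.95 (miR-133a-3p), 3.58 (miR-208b-3p) and 3.62 (miR-499-5p), and with DESeq2 2.29, 2.01, 3.69 and 3.78. For preparations in the cauda, edgeR called miR-1a-3p (-2.54) and miR-208b-3p (-5.20) and DESeq2 miR-1a-3p (-2.64). For the difference of changes, edgeR newly called miR-133a-3p (-3.58), DESeq2 newly called miR-133a-3p (-3.76) and miR-1a-3p (-3.25), and both kept the call of miR-133b-3p (-10.24 and -8.13).

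In limma-voom, miR-499-5p was newly called from corpus to cauda with DESeq2 size factors (3.07), library totals (3.05), all miRNAs with at least 1 count (3.04), miR-133a-3p and miR-133b-3p counted together (3.04), only the groups compared (3.03) and counts not rounded (3.04). From caput to corpus, with only the groups compared, miR-1a-3p (1.95) and miR-133a-3p (1.57) were newly called. miR-208b-3p was newly called between preparations in the cauda with size factors (-4.02), library totals (-3.89) and all miRNAs with at least 1 count (-3.82). The difference of changes of miR-133a-3p was newly called with size factors (-3.40), library totals (-3.34), at least 10 counts in every library (-3.19) and only miRNAs identified in both preparations (-3.19).

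With TMM factors from all miRNAs with at least 1 count, a set given up after the results under both had been seen, miR-208b-3p was called between preparations in the cauda (-4.10, adjusted p = 0.0339; range 0.00105 to 0.351) and the difference of changes of miR-133a-3p was called (-3.38, adjusted p = 0.0446; range 0.000180 to 0.147). The change of miR-133a-3p between epithelial caput and cauda, 0.00, turned to -0.092 under this alternative, -0.0054 with all miRNAs with at least 1 count, -0.0024 with at least 10 counts in every library, -0.029 counted with miR-133b-3p and -0.0080 with only the groups compared.

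With 1 library left out, the lowest and highest values of results whose call or sign changed were, from caput to corpus, 1.22 and 2.57 (miR-1a-3p) and 0.88 and 2.19 (miR-133a-3p). From corpus to cauda they were 1.32 and 2.71 (miR-1a-3p), 1.03 and 2.47 (miR-133a-3p), 1.03 and 3.95 (miR-133b-3p), 2.13 and 5.53 (miR-208b-3p) and 2.46 and 3.72 (miR-499-5p). From caput to cauda they were 2.78 and 4.17 (miR-133b-3p) and 6.03 and 7.79 (miR-208b-3p). In epithelial cells miR-133a-3p had -1.07 and -0.35 from corpus to cauda and -0.34 and 0.35 from caput to cauda, with -0.0058 without the first corpus library. Between preparations they were 2.33 and 3.71 (miR-133a-3p) and -0.9998 and 0.42 (miR-1a-3p) for the corpus, and for the cauda -2.83 and -1.35 (miR-1a-3p), -0.10 and 1.41 (miR-133a-3p), -2.52 and -1.26 (miR-133b-3p), -4.91 and -2.93 (miR-208b-3p) and -2.72 and -0.73 (miR-499-5p). For the difference of changes they were -3.54 and -2.13 (miR-1a-3p), -4.02 and -2.58 (miR-133a-3p), -6.57 and -5.17 (miR-133b-3p), -6.61 and -4.70 (miR-208b-3p) and -4.08 and -2.26 (miR-499-5p).

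Replicate numbers were not shown to pair the libraries. In whole tissue 4 of 7 pairs with the same number had deviations correlated over 0.1 (r -0.03 to 0.21), and in epithelial cells 2 of 6 (-0.10 to 0.21). The best match was of the same number in 8 of 14 and 4 of 12 cases. With a replicate block, calls went from 100 to 102, 93 to 101 and 189 to 187 in whole tissue and from 25 to 27, 21 to 22 and 56 to 52 in epithelial cells. The block newly called miR-1a-3p (2.80) and miR-133a-3p (2.26) from caput to corpus, miR-1a-3p (1.47), miR-133a-3p (1.29), miR-208b-3p (2.71) and miR-499-5p (2.54) from corpus to cauda, and, within each preparation, the difference of changes of miR-133a-3p (-3.47), miR-208b-3p (-5.70) and miR-499-5p (-3.22).

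Calls over all miRNAs moved with the filters and with single libraries. With all miRNAs with at least 1 count they went from 25 to 84 and 21 to 40 in epithelial cells (caput to corpus, corpus to cauda) and from 102 to 241, 75 to 265 and 108 to 266 between preparations (caput, corpus, cauda). With at least 10 counts in every library they went from 100 to 66 and 189 to 112 in whole tissue (caput to corpus, caput to cauda), 25 to 16 and 56 to 30 in epithelial cells, 102 to 35, 75 to 35 and 108 to 44 between preparations, and 43 to 26 for the difference of changes. Leaving out 1 library took epithelial calls as low as 10, 4 and 26 (without the second caput, the first corpus and the second caput library), the corpus preparation calls to 47 (without the second epithelial corpus library) and the difference of changes to 23 and 26 (without the first epithelial caput or cauda library).

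Library totals raised the median log2 change by 0.33 (caput to corpus) and 0.35 (caput to cauda) in whole tissue, 0.16 and 0.18 in epithelial cells and 0.13 between caput preparations, and moved the difference of changes by -0.16. Higher and lower calls went from 47 and 53 to 76 and 35, from 99 and 90 to 115 and 65, from 13 and 12 to 18 and 9, from 30 and 26 to 39 and 19, and from 28 and 15 to 18 and 20 for the difference of changes. Size factors moved the medians by 0.10 (epithelial caput to corpus), 0.12 and -0.13 (corpus and cauda preparations) and -0.19 (difference of changes), and the calls of the first, second and last to 18 and 10, 28 and 40, and 15 and 20, from 13 and 12, 22 and 53, and 28 and 15. Depth limits the epithelial libraries most, since 3 counts are 12.8 CPM over both corpus libraries.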
